A study of Mus musculus with 28 samples.

Results

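Extracellular vesicles (EVs) were compared with the EV-depleted plasma of the same animals in the oldest mice of the series, aged 12 and 18 months. The comparison covered 8 of the 28 small RNA libraries and 4 of the 14 mice, namely 4 EV libraries whose labels begin with the vesicle prefix and the age, and the 4 plasma libraries that share their mouse label. All animals were female wild-type C57BL/6N mice, 2 aged 12 months and 2 aged 18 months. Blood of each mouse was spun to give platelet-free plasma, which was then ultracentrifuged. The resuspended pellet is the EV-enriched fraction, and the supernatant, labelled free circulating, is called plasma here. No animals were pooled. A pellet of this kind can also hold other particles that sediment with vesicles, and no protein marker of vesicles was among the values analysed here.

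EVs are membrane-bound particles that cells release into blood and other fluids. They carry proteins and RNA, while the RNA of the remaining plasma is mainly held in complexes with proteins such as Argonaute or with lipoproteins. Small RNA sequencing reads short molecules: whole microRNAs (miRNAs) and piwi-interacting RNAs (piRNAs), and fragments of longer RNAs such as transfer RNA (tRNA), ribosomal RNA (rRNA), small nuclear and nucleolar RNAs (snRNAs, snoRNAs), Cajal body RNAs (scaRNAs), long noncoding RNAs (lncRNAs) and circular RNAs (circRNAs). A read that matched several listed RNAs was counted for each of them, so identical copies of a gene carry identical counts.

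The EV libraries held 10280051 to 52753818 counts and the plasma libraries 2711594 to 23905651. The plasma of 12-month mouse 1 was the shallowest library, with 7380 miRNA counts against 32497 or more in the other 7. Over 22597 RNAs, Spearman's rho of the log2 levels was 0.81 to 0.87 among the EV libraries and 0.74 to 0.85 among the plasma libraries. Between the EV and plasma library of the same mouse it was 0.74 to 0.82.

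miRNAs with a large difference between the fractions, and the most abundant miRNAs of each fraction, are shown by their mature RefSeq sequences, 5′ to 3′, with the seed (bases 2 to 8, which pairs with target mRNAs) in capitals. The first 8 were the most EV-enriched by fold change among miRNAs that met the naming rule (passed, same direction in all 4 mice and a mean of at least 10 counts), miR-8117 was the plasma-enriched miRNA that met the naming rule, and the last 7 were the most abundant.
miR-1956: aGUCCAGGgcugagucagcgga
miR-3068-3p: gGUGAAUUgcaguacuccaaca
miR-12188-5p: uAGAAGAGcuuucgcuggcccaga
miR-130b-3p: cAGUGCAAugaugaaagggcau
miR-322-3p: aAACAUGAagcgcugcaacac
miR-215-3p: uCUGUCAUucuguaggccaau
miR-24-1-5p: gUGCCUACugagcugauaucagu
miR-6937-5p: uAGCUGUAagggcugggucugugu
miR-8117: gCUCGUGUggaacagaagggg
miR-451a: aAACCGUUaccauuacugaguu
miR-21a-5p: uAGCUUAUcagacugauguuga
miR-6238: uUAUUAGUcaguggaggaaaug
miR-23a-3p: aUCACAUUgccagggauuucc
miR-3473b: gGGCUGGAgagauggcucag
miR-3473e: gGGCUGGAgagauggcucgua
miR-25-3p: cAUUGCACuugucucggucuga
Only miR-3473b and miR-3473e shared a seed within this set. The 8 EV-enriched miRNAs had 8 different seeds. miR-1956 lies on chromosome 3 at positions 138526425 to 138526446 of the plus strand in GRCm38.p6, and its sequence also occurs in a transcript of Eif4e.

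To see which kinds of RNA the fractions held, counts were summed per RNA class. EVs carried a larger share of rRNA fragments and a smaller share of tRNA fragments than plasma in all 4 mice. rRNA made up 33.7% ± 10.9 of the EV counts and 6.80% ± 2.92 of the plasma counts (SD, n = 4), a mean log2 ratio of 2.34 ± 0.34. In the order 12-month mouse 1, 12-month mouse 2, 18-month mouse 1 and 18-month mouse 2, rRNA took 25.1%, 43.4%, 23.4% and 42.8% of EV counts and 5.61%, 11%, 4.25% and 6.33% of plasma counts. The lowest EV share was more than 2 times the highest plasma share, so the fractions did not overlap. tRNA took 45.7%, 40.0%, 51.4% and 40.7% of EV counts and 73.0%, 72.1%, 75.5% and 78.8% of plasma counts in the same order, again without overlap, with a mean log2 ratio of -0.76 ± 0.18.

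The shares of the other classes changed as follows. The miRNA share was 0.465% ± 0.128 in EVs and 0.308% ± 0.0429 in plasma, higher in EVs in 4 of 4 mice, with a mean log2 ratio of 0.57 ± 0.48. 12-month mouse 1 had the widest gap, 0.652% against 0.272%, and 12-month mouse 2 the narrowest, 0.386% against 0.346%. The shares of piRNA, snRNA, scaRNA and misc_RNA (a class that holds 7SL, 7SK, Y and vault RNAs) were also higher in EVs in 4 of 4 mice, by mean log2 ratios of 0.48 ± 0.40, 0.53 ± 0.51, 0.73 ± 0.12 and 0.38 ± 0.48. The misc_RNA ratio was uneven, at 1.03 and 0.43 in mouse 1 of 12 and of 18 months but 0.012 and 0.026 in mouse 2 of each age. With identical RNAs counted 1 time, the misc_RNA share was higher in EVs in 3 of 4 mice. The snoRNA share was higher in EVs in 3 of 4 mice (0.87 ± 0.69). The circRNA share had a mean log2 ratio of -0.01 ± 0.27 and the lncRNA share of -0.15 ± 0.33. Shares depend on each other, and with rRNA left out of the denominator the mean log2 ratio was 0.49 for circRNA, 0.36 for lncRNA and -0.25 for tRNA. In the exact two-sided test over the 16 sign changes of 4 mice, a class whose mice all pointed one way is matched by 2 of the 16, so that no class could reach p = 0.05.

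**Figure D1:**
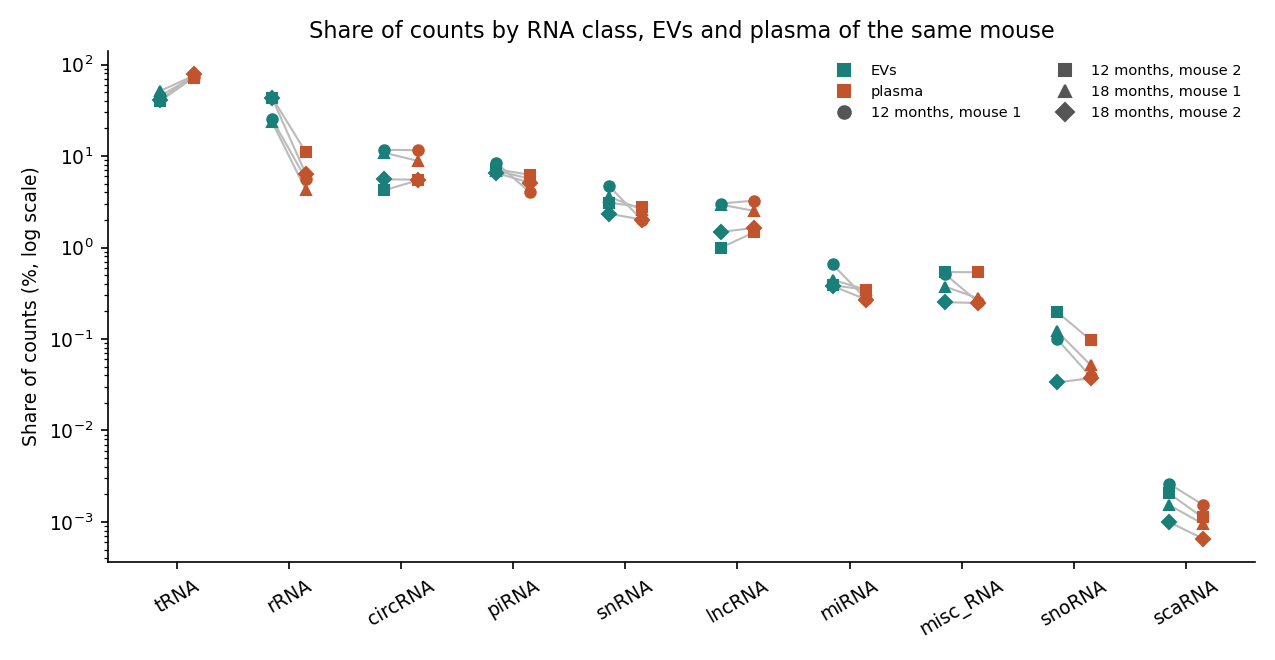
Share of all counts (percent, log axis) taken by each RNA class in the EV (green) and plasma (orange) library of the 4 mice, 1 symbol per mouse, with lines joining the libraries of a mouse. rRNA lies higher in EVs (33.7% against 6.80% on average) and tRNA higher in plasma, without overlap in either class.

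Each RNA was then compared between the fractions within the mouse, by edgeR's quasi-likelihood test on counts with the mouse as a block. Of 22597 RNAs tested, 1645 (7.28%) were called higher in EVs and 618 (2.73%) toward plasma at a Benjamini-Hochberg adjusted p under 0.05. Without the mouse in the model, and with age in its place, 492 and 264 passed. These fold changes rest on TMM (trimmed mean of M values) scaling, which sets the bulk of RNAs near equality; the median log2 fold change of all RNAs was -0.04. On the deposited RPM (reads-per-million) scale every log2 fold change was lower by about 0.66 and the median became -0.70, with 973 RNAs called toward EVs and 3950 toward plasma. The EV-higher part of the calls was 72.7% with TMM and 19.8% with RPM scaling. Fold changes below are TMM values unless the RPM scale is named. RNAs named for a large change were taken from those that passed, moved the same way in all 4 mice and had a mean of at least 10 counts, and words such as largest refer to these. Of the 65 named RNAs, 31 lost their call without the mouse in the model, 7 with RPM scaling and 9 with total counts.

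By class, the share of tested RNAs called higher in EVs was greatest for rRNA (142 of 207), miRNA (167 of 355) and snoRNA (158 of 394). Against them, 5 rRNAs, 7 miRNAs and 8 snoRNAs were called higher in plasma. The median log2 fold change was 2.45 for rRNA, 1.65 for snoRNA, 1.30 for miRNA and 1.23 for scaRNA (9 higher and 0 lower of 29), and stayed above 0 on the RPM scale at 1.80, 0.98, 0.64 and 0.61. For snRNA (89 higher, 7 lower of 436), misc_RNA (30 and 3 of 219) and tRNA (24 and 13 of 407) the medians of 0.39, 0.10 and 0.03 turned to -0.26, -0.57 and -0.63 on the RPM scale. circRNAs (463 and 319 of 11761) and lncRNAs (341 and 174 of 7354) had medians of -0.08 and -0.05. piRNAs were spread most widely, from a lower quartile of -2.14 to an upper quartile of 0.91 (median -0.50), with 222 higher and 82 lower of 1435. On the RPM scale more piRNAs were called toward plasma (231) than toward EVs (173), with a median of -1.14. The same held for circRNAs (2092 against 259, median -0.73) and lncRNAs (1306 against 175, median -0.71).

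**Figure D2:**
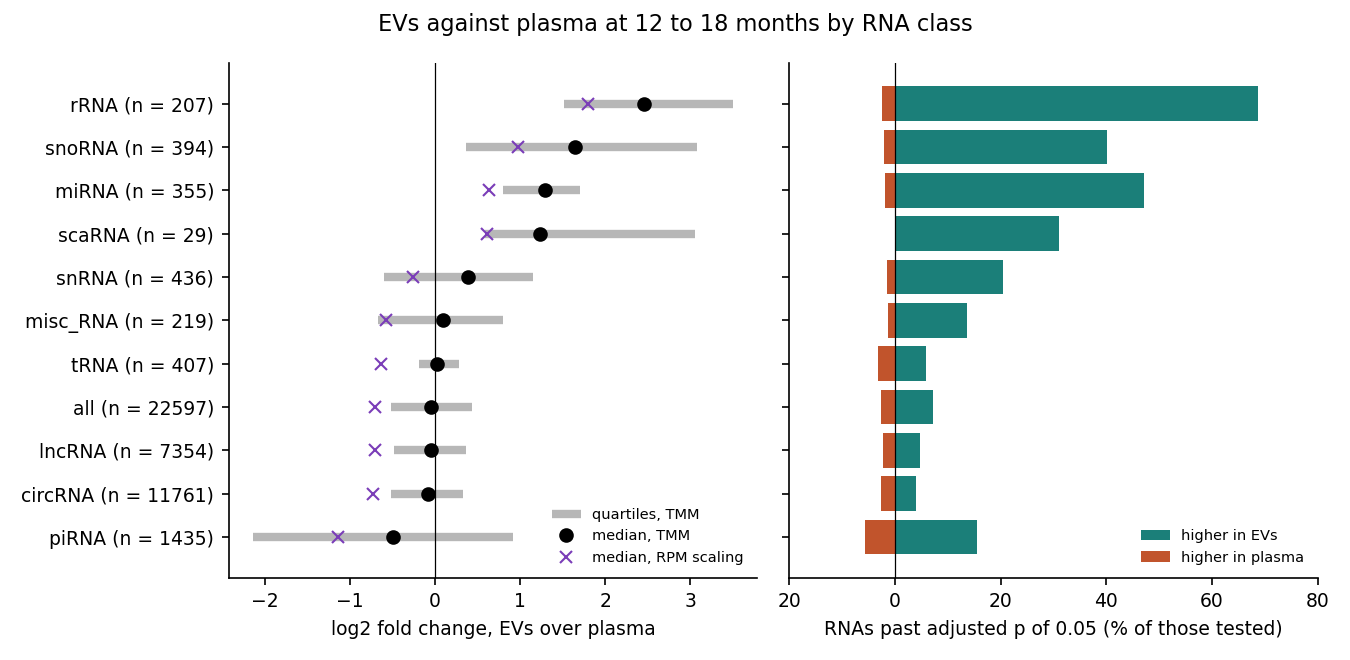
Left, log2 fold change of EVs over plasma by class, with medians (black points) and quartiles (grey bars) under TMM scaling and medians under RPM scaling (crosses). Right, percent of the tested RNAs of each class that passed an adjusted p of 0.05, higher in EVs to the right and higher in plasma to the left. rRNA, snoRNA, miRNA and scaRNA have medians above 0 under both scalings, while snRNA, misc_RNA and tRNA cross 0.

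miRNAs are short regulators that guide Argonaute proteins to mRNAs. Among miRNAs that met the naming rule, miR-1956 had the largest EV enrichment, at 5.92, 6.05, 18.1 and 14.4 counts-per-million units (CPM, TMM-scaled) in the EVs of the 4 mice and 0.159, 0.369, 0.339 and 0.436 in their plasma. Every EV library lay far above every plasma library, and the log2 fold change was 4.93 (SE 0.37, adjusted p = 6.2e-06, edgeR). miR-3068-3p followed with 2.42, 31.4, 0.763 and 1.73 CPM in EVs and 0, 0.685, 0.271 and 0.272 in plasma (log2 fold change 3.96, adjusted p = 0.0019). Its EV level in 12-month mouse 2 stood well above the other 3.

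miR-12188-5p reached 14.1, 93.4, 15.6 and 28 CPM in EVs against 1.75, 12.1, 4.07 and 4.30 in plasma, without overlap (log2 fold change 2.64, adjusted p = 5.3e-05). miR-130b-3p, miR-322-3p, miR-215-3p, miR-24-1-5p and miR-6937-5p had log2 fold changes of 2.40 to 2.52, from EV levels of 0.763 to 12.0 CPM. miR-6937-5p was the exception in this group in that its fractions overlapped. 5 of the 8 (miR-3068-3p, miR-12188-5p, miR-130b-3p, miR-24-1-5p and miR-6937-5p) did not pass without the mouse in the model.

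Higher in plasma were 7 miRNAs, all of low abundance. miR-8117 had 1, 3, 0 and 1 counts in EVs and 9, 132, 4 and 3 counts in plasma, a log2 fold change of -4.75 (adjusted p = 0.00027, edgeR). Most of its plasma counts came from 12-month mouse 2, and without that mouse the adjusted p was 0.075. miR-341-5p, miR-7031-3p and miR-7019-3p, named after their values were seen, had 0 counts in all EV libraries and 66, 30 and 28 counts over the 4 plasma libraries. The plasma of 12-month mouse 2 held 63 of the 66 miR-341-5p counts and 27 of the 28 miR-7019-3p counts, which left no more than the floor of 3 counts elsewhere. miR-7031-3p was found in all 4 plasma libraries, with 6, 9, 2 and 13 counts. Against a floor of 3 counts over the EV libraries, miR-7031-3p was at least 18.5-fold higher in plasma per total count. This bound was 11.1-fold without 12-month mouse 2 and 11.7-fold without 18-month mouse 2. Scaling to total counts set RNAs a median of 0.71 log2 units further toward plasma than TMM scaling.

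The most abundant miRNA of both fractions was miR-451a, the red cell miRNA that is processed without Dicer, with a mean of 1867 RPM ± 1239 in EVs and 1325 RPM ± 684 in plasma (SD, n = 4). Its CPM was 558, 2413, 249 and 1164 in EVs and 199, 998, 246 and 506 in plasma, so the fractions overlapped across mice although EVs were higher within each mouse on this scale (log2 fold change 1.00, adjusted p = 0.018). The call was lost without 12-month mouse 1, 12-month mouse 2 or 18-month mouse 2 (miR-451a adjusted p = 0.12, 0.067 and 0.067), and on the RPM scale (0.34, adjusted p = 0.31). miR-21a-5p, widely expressed and known from inflammation, averaged 719 RPM ± 220 in EVs and 462 RPM ± 154 in plasma (log2 fold change 1.32, adjusted p = 0.0054), and miR-23a-3p averaged 544 RPM ± 118 and 253 RPM ± 76.5 (1.78, adjusted p = 0.0005). miR-6238 averaged 580 RPM ± 555 and 168 RPM ± 152 (2.36, adjusted p = 0.00011). miR-3473b (517 RPM ± 191 and 536 RPM ± 143) and miR-3473e (480 RPM ± 166 and 501 RPM ± 129) did not pass. miR-25-3p averaged 379 RPM ± 103 and 273 RPM ± 54.4 (1.10, adjusted p = 0.0069), a call lost without 12-month mouse 1 (adjusted p = 0.054) and on the RPM scale. The call of miR-21a-5p was also lost on the RPM scale. The counts of miR-3473e were 0.909 to 0.965 of those of miR-3473b in the 8 libraries, and the sequence of miR-3473b occurs in transcripts of 343 GENCODE genes that are not miRNA genes.

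**Figure D3:**
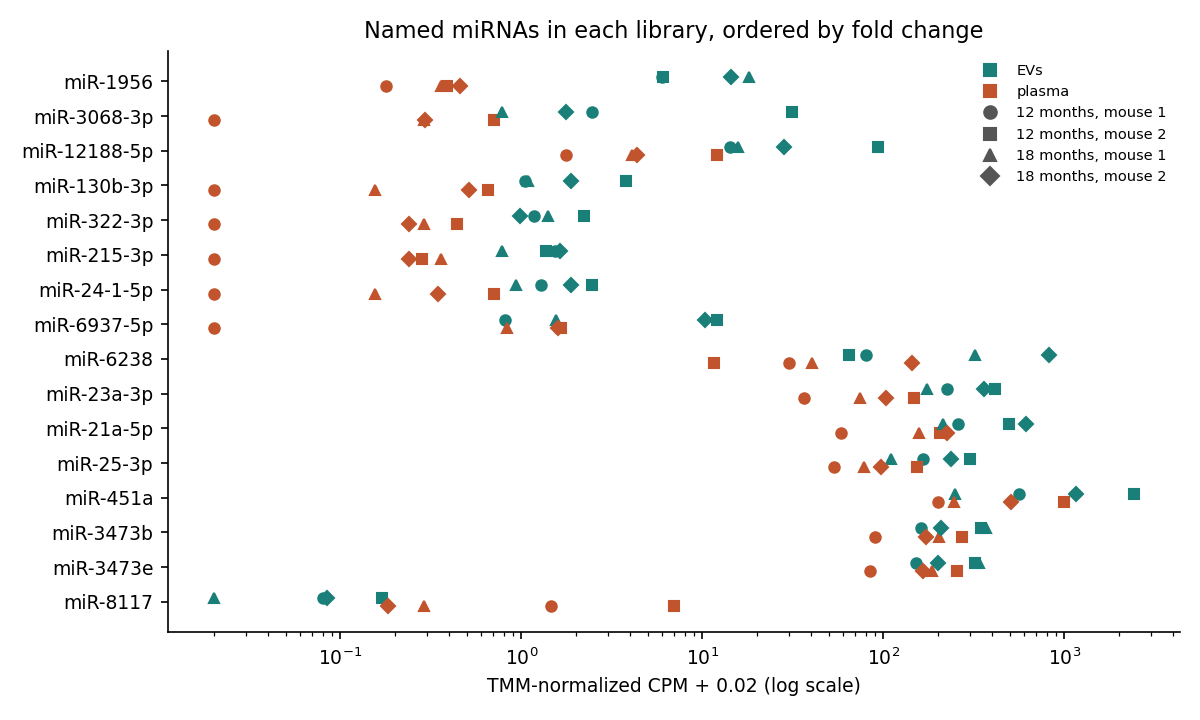
TMM-scaled CPM (log axis, with 0.02 added so that zeros show) of the named miRNAs in the EV (green) and plasma (orange) libraries, ordered by log2 fold change from miR-1956 (4.93) at the top to miR-8117 (-4.75) at the bottom. EV and plasma points separate for miR-1956 and overlap for miR-451a.

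Since most miRNAs shifted together, miRNAs were also scaled to each other. In a fit of the 355 miRNAs alone, 16 (4.51%) were higher in EVs and 42 (11.8%) higher in plasma. miR-1956 (3.73), miR-3068-3p (2.98), miR-12188-5p (1.31) and miR-6238 (1.01) kept their direction and passed. miR-142a-3p, a miRNA of blood cells, had a log2 fold change of 0.90 (adjusted p = 0.00055, edgeR). Lower in EVs relative to other miRNAs were miR-486a-5p (-0.89) and miR-486b-5p (-0.84), which accompany red cell formation, miR-92a-3p (-0.61), miR-3473b (-0.80) and miR-5100 (-1.34). The counts of miR-486a-5p and miR-486b-5p were nearly equal in each library.

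Lists of miRNAs that mark cell types were described next, beside a median of 1.30 and a share of 47.0% called higher in EVs for all tested miRNAs (66 of 355 on the RPM scale). In bulk fractions, fewer vesicles from a cell type and less RNA per vesicle cannot be told apart. Of the 8 red cell miRNAs 5 were higher in EVs (median 0.96), the summed level was 517 to 3507 CPM in EVs and 346 to 1498 CPM in plasma, and 3 of the 8 were lower in EVs in the fit of miRNAs alone. All 5 liver miRNAs (median 1.37), all 5 platelet and myeloid miRNAs (1.37), 6 of 8 leukocyte miRNAs (1.37), all 4 vessel wall miRNAs (1.40) and 5 of 7 epithelial miRNAs (1.30) were higher in EVs. On the RPM scale 1 of 5 liver, 2 of 5 platelet and myeloid, 3 of 8 leukocyte, 1 of 4 vessel wall, 1 of 7 epithelial and 0 of 8 red cell miRNAs were still called. The hepatocyte miRNA miR-122-5p had 13.6, 19.4, 46.3 and 32.3 CPM in EVs and 3.02, 9.33, 32.9 and 16.5 in plasma (log2 fold change 1.12, adjusted p = 0.023, and 0.46, adjusted p = 0.26, on the RPM scale), and both fractions were highest in 18-month mouse 1.

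Muscle, brain and pancreas miRNAs were scarce. Of 7 muscle miRNAs 5 were tested and 1 passed, miR-1a-3p (1.67). Of 7 brain miRNAs 2 were tested and 1 passed, miR-128-3p (1.46), while miR-129-5p was at 0 in all 8 libraries. Of 4 pancreas miRNAs 1 was tested, miR-375-3p (1.43), and it passed. None of these 3 passed on the RPM scale. None of the members of these 9 lists was called higher in plasma under TMM scaling, and the medians of all lists but muscle stayed above 0 on the RPM scale. Relative to other miRNAs, the medians of the lists other than red cell (-0.42) and muscle (-0.85) lay within -0.06 to 0.10.

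The let-7 family, which restrains growth programmes, had 9 of 17 tested members higher in EVs (median 1.17), a share near that of all tested miRNAs, and 4 of 17 on the RPM scale. Among the 9 was let-7g-5p (138 RPM in EVs and 90.2 RPM in plasma). All 4 tested members of the miR-29 family, regulators of collagen genes, were higher in EVs (median 1.60), 3 of them on the RPM scale. miR-29c-3p had 33.2, 61.4, 28.9 and 50.1 CPM in EVs and 4.92, 21, 13.9 and 21.8 in plasma, without overlap (log2 fold change 1.60, adjusted p = 0.0033, edgeR). In the fit of miRNAs alone the difference was 0.22 (adjusted p = 0.54). The miR-17-92 and miR-106b-25 clusters, linked to cell proliferation, had 11 of 13 tested members higher in EVs (median 1.26), 4 of 13 on the RPM scale, and 1 of 13, miR-92a-3p, lower relative to other miRNAs.

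RefSeq held the mature sequence of 287 of the 355 tested miRNAs. The median GC content was 47.8% over these, 54.2% in the EV-higher group of the fit of miRNAs alone (15 of 16 with a sequence) and 59.4% in its plasma-higher group (34 of 42). The vesicle-sorting motif CNGGNC, read on the miRNA strand, was in 22 of 287 (7.67%), 3 of 15 and 4 of 34. GGAG was in 38 of 287 (13.2%), 3 of 15 and 9 of 34. The groups are small, and the motif counts are given as a description.

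Ribosomal RNA carried the largest shift between the fractions. The 5S entries, copies of the small RNA of the large ribosomal subunit, took 14.9%, 31.0%, 10.4% and 28.2% of EV counts and 1.90%, 5.58%, 1.5% and 3.07% of plasma counts. All EV values lay above all plasma values, with a mean log2 ratio of 2.86 ± 0.31. Of 135 tested 5S entries 106 were higher in EVs and 2 higher in plasma (median log2 fold change 2.65). The copy n-R5s104 had 40872, 443667, 31878 and 225342 counts in EVs and 1430, 38277, 3913 and 17519 in plasma. Of the 181 listed 5S entries 26, itself included, carried exactly these counts, so such a read entered the class sum many times. With identical RNAs counted 1 time, the 5S share was 10.7% ± 6.16 in EVs and 1.43% ± 0.853 in plasma, a log2 ratio of 2.88 ± 0.32.

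The rRNA entries higher in plasma stood against that direction. Those named by the rule were n-R5s219, on chromosome 1 at 149841530 to 149841661 of the plus strand, and Gm24931, on chromosome 5 at 92118177 to 92118283 of the minus strand, in GRCm38. Both are annotated as rRNA genes.

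n-R5s219 had 18, 32, 3 and 14 counts in EVs and 119, 1802, 29 and 158 in plasma (log2 fold change -4.32, adjusted p = 8.3e-05, edgeR). Gm24931 had 2, 79, 3 and 7 counts in EVs and 39, 2013, 7 and 181 in plasma (-4.42, adjusted p = 0.00011). Plasma was higher within every mouse, and the plasma of 12-month mouse 2 held most counts of both. Both calls held without that mouse, with adjusted p-values of at most 0.0036 over the 4 leave-one-out fits. Toward EVs, the rRNA entries that met the naming rule with the largest changes were Gm24601 (387, 409, 114 and 559 CPM in EVs and 11, 19.9, 12.3 and 20.9 in plasma, log2 fold change 4.37) and Gm23381 (4.31). The most abundant rRNA entry, CT010467.1, rose less, at 6.61%, 4.91%, 10.5% and 7.67% of EV counts and 3.24%, 4.06%, 2.38% and 2.51% of plasma counts (log2 fold change 1.97, adjusted p = 0.00011). DESeq2 did not call it. With identical RNAs counted 1 time, CT010467.1 took 15.8% ± 3.86 of EV counts and 6.98% ± 1.85 of plasma counts. The 5S entries, counted in the same way, took 10.7% ± 6.16 of EV counts.

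tRNAs bring amino acids to the ribosome, and their fragments were the largest class of plasma counts in every mouse. In EVs they exceeded rRNA in mouse 1 of each age. In mouse 2 of each age rRNA was slightly higher, at 43.4% against 40.0% (12 months) and 42.8% against 40.7% (18 months). tRNA-SeC-TCA-1-1, the tRNA that inserts selenocysteine at UGA codons, had the largest change, at 321, 1620, 201 and 828 CPM in EVs and 31.5, 224, 29.5 and 152 in plasma. EVs were higher in each mouse, and the fractions overlapped across mice. Its log2 fold change was 2.85 (SE 0.21, adjusted p = 4.6e-06, edgeR), and 2.19 on the RPM scale, where it was the 1 tRNA still called higher in EVs against 226 called higher in plasma. Within the tRNA counts it made up 0.105% ± 0.0454 in EVs and 0.0146% ± 0.00822 in plasma, a mean log2 ratio of 2.91 ± 0.41. Without the mouse in the model it did not pass.

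The other tRNA calls were smaller. Toward EVs, 5 of 34 Ala, 8 of 26 Leu, 5 of 22 Ser, 2 of 8 Met, 1 of 12 Asn, 1 of 32 Lys and 1 of 8 Trp genes were called. These counts include identical copies, such as the 3 genes of tRNA-Leu-AAG-1 (log2 fold change 1.16, adjusted p = 0.0033). Toward plasma, 4 of 24 Arg, 3 of 16 Ile, 4 of 22 Ser, 1 of 26 Leu and 1 of 16 Pro genes were called, led by tRNA-Pro-TGG-3-1 (-1.72, adjusted p = 0.012) and tRNA-Ile-AAT-4-1 (-1.19, adjusted p = 0.0043). The Ser genes split by anticodon: those called toward EVs read GCT, and those called toward plasma read AGA, CGA and TGA. The tRNA-Pro-TGG-3-1 call was lost without 12-month mouse 1 (adjusted p = 0.082). No other tRNA group held a called gene.

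Within the tRNA counts, the Arg share was lower in EVs in 4 of 4 mice, at 0.696%, 1.88%, 1.86% and 2.48% against 1.91%, 3.09%, 2.37% and 2.96%. The Ile and Cys shares were likewise lower in 4 of 4 mice, and the Asn, Gly, Leu, Lys, Met, SeC and Tyr shares were higher in 4 of 4. Pro tRNAs were the largest group of both fractions, with 26.8% ± 0.515 of tRNA counts in EVs and 29.9% ± 3.86 in plasma. Groups with 4 concordant mice were again matched by 2 of the 16 sign changes in the exact test, the fewest possible. The most abundant tRNA, tRNA-Pro-TGG-2-1, with 3 identical copies, averaged 22835 RPM ± 6437 in EVs and 40719 RPM ± 4847 in plasma, and its TMM fold change of -0.21 did not pass.

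**Figure D4:**
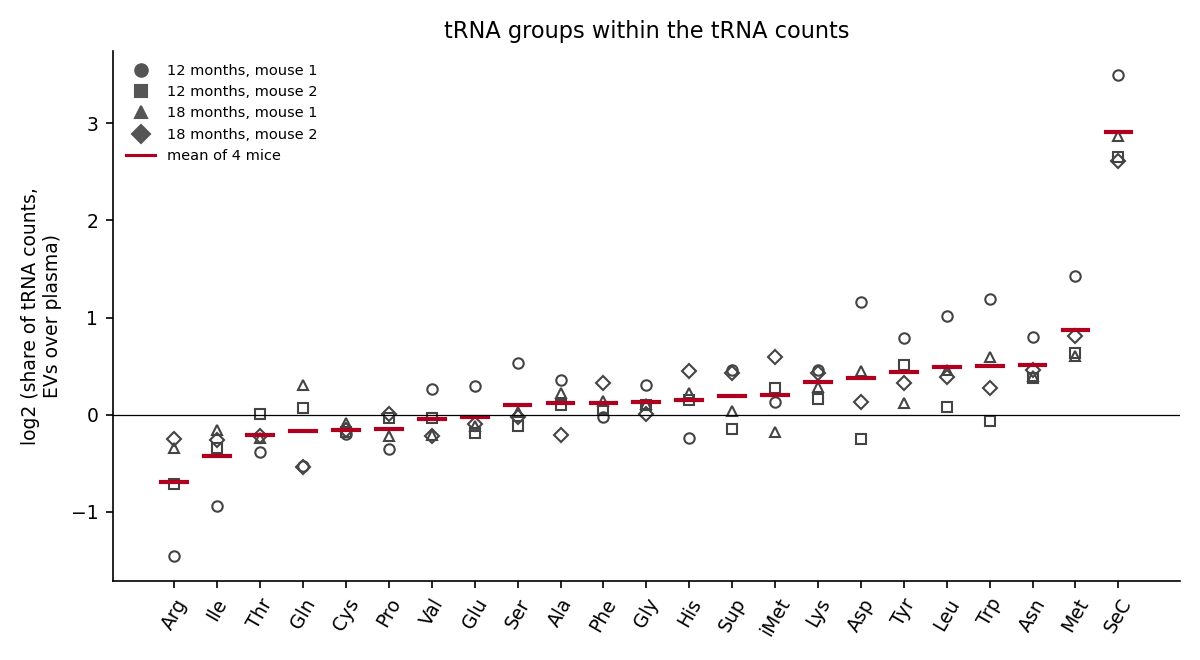
log2 ratio of EVs over plasma of the share of tRNA counts held by each tRNA group (amino acid, with SeC for selenocysteine, iMet for initiator methionine and Sup for suppressor), 1 symbol per mouse and the mean of 4 mice as a red bar. SeC stands at 2.91 on average, while the other groups lie between -0.69 (Arg) and 0.87 (Met).

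Small nucleolar RNAs guide the modification and cleavage of rRNA. Of 32 tested H/ACA snoRNAs (Snora) 27 were higher in EVs and 0 higher in plasma (median log2 fold change 3.18, 2.53 on the RPM scale). Of 49 tested C/D box snoRNAs (Snord) 26 were higher in EVs and 0 lower (median 2.38). The most abundant snoRNA in EVs was Snora73a, which takes part in 18S rRNA processing, and its sequence is shown with the defining ACA box in capitals.
Snora73a: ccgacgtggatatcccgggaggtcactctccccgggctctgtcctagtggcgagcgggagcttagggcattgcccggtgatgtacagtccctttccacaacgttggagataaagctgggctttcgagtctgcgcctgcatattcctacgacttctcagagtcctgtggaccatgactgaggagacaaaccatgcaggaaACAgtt
It lies on chromosome 4 at 132352775 to 132352979 of the minus strand in GRCm38. Its level was 74.7, 207, 131 and 28.8 CPM in EVs and 2.54, 7.33, 2.30 and 4.90 in plasma, without overlap (log2 fold change 4.52, SE 0.47, adjusted p = 6.7e-05, edgeR). The Snhg3 gene hosts Snora73a, and the circRNA annotated to Snhg3, mmu_circ_0001276, was the circRNA with the largest EV enrichment within the naming rule (4.37). Its counts were 1.00 to 1.31 times those of Snora73a in the 8 libraries.

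Snora81 had 14.7, 203, 15.2 and 9.87 CPM in EVs and 0.318, 5.69, 0.542 and 0.49 in plasma (log2 fold change 4.90, adjusted p = 6.4e-07). The 12-month mouse 2 was high in both fractions. Gm24357 (6.16) and Gm26448 (5.97) had the largest snoRNA fold changes within the naming rule, with an EV level in 12-month mouse 2 of 18.5 and 13.3 CPM against at most 1.98 in the other EV libraries. Toward plasma were Gm23786 (-2.34) and Gm23639 (-1.68), the latter lost without 12-month mouse 1 or 18-month mouse 2 (adjusted p = 0.06 and 0.063). The U3 genes, which act in early rRNA cleavage, were all called higher in EVs (10 of 10, some with identical counts, median 1.26), but 2 of 10 on the RPM scale, and Rnu3b3 was the most abundant snoRNA in plasma. Its call was lost without 12-month mouse 1, 12-month mouse 2 or 18-month mouse 1 (adjusted p = 0.073, 0.053 and 0.062). Among 29 tested scaRNAs, which guide the modification of snRNAs, Gm25820 (3.92) and Scarna3a (3.67) had the largest changes toward EVs of those that met the naming rule.

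RNAs of other nuclear and cytoplasmic particles were mostly higher in EVs. Rmrp, the RNA of the rRNA-cleaving enzyme RNase MRP, had 10.3, 79.2, 15.4 and 21.1 CPM in EVs and 1.27, 7.59, 1.83 and 2.40 in plasma, without overlap (log2 fold change 3.17, adjusted p = 8.9e-06, edgeR). Vaultrc5, the vault particle RNA, had 16, 27.0, 13.2 and 36.6 CPM in EVs and 1.91, 8.12, 3.39 and 6.37 in plasma (2.27, adjusted p = 0.00023). The Ro-bound Y RNAs Rny3 (2.24) and Rny1 (1.27) and the transcription regulator 7SK (Rn7sk, 1.80) also passed. 7SL, the RNA of the signal recognition particle, was the most abundant misc_RNA, and Rn7s1 and Rn7s2 had identical counts, with 660, 2996, 681 and 1099 CPM in EVs and 204, 1500, 352 and 577 in plasma (1.14, adjusted p = 0.0019). On the RPM scale Rmrp, Vaultrc5, Rny3 and Rn7sk still passed, and Rny1 (0.61) and Rn7s1 (0.48) did not.

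All 4 U1 genes, whose RNA recognizes the 5′ splice site, were higher in EVs (median 1.26), as was the U5 gene Rnu5g (1.12). With identical RNAs counted 1 time, only 1 of the 4 U1 genes was left, so they are not 4 separate findings. On the RPM scale 2 of the 4 U1 genes passed and Rnu5g did not. The U2 gene Rnu2-10 did not pass under TMM scaling (0.57, adjusted p = 0.16, edgeR). The U6 entry Rnu6-ps2 had too few counts to be tested. The largest snRNA changes within the naming rule were those of Gm25322 (4.51) and Gm25112 (4.41) toward EVs. Counts of Gm25322 were 0.727 to 0.942 of those of Gm25112 in each library, so these changes may not be separate. Toward plasma, Gm24831 (-1.41) lost the call without 12-month mouse 2, 18-month mouse 1 or 18-month mouse 2 (adjusted p = 0.11, 0.059 and 0.12), and Gm23303 (-1.36) without any of the 4 mice (0.055 to 0.13). In misc_RNA, Gm22667 (3.81) and Gm23037 (2.97) were named toward EVs, and Gm27404 (-5.41) and Gm22261 (-1.56) toward plasma. Gm22261 was lost without 12-month mouse 1 or 12-month mouse 2 (adjusted p = 0.2 and 0.2). The most abundant snRNA and scaRNA entries of both fractions, Gm22513 (1.26) and Mir1839 (1.78), were higher in EVs. The Gm22513 call was lost on the RPM scale (0.60, adjusted p = 0.058), and both calls were lost with total counts and without the mouse in the model.

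Among lncRNAs, Gm42864 was the most abundant in EVs, at 951, 1449, 2888 and 3070 CPM against 105, 129, 145 and 257 in plasma (log2 fold change 3.64, SE 0.23, adjusted p = 9e-07, edgeR). Gm44117 changed by 4.00, without overlap. Gm2762 and Gm20083 were the lncRNAs named toward plasma. Gm2762 had 0.121, 0.198, 0 and 0.385 CPM in EVs and 30.3, 23.2, 4.2 and 26.5 in plasma (-6.88, adjusted p = 7.3e-07), and Gm20083 changed by -5.95. Gm35281, the most abundant lncRNA in plasma, had a log2 fold change of 1.65. The nuclear lncRNA Malat1 did not pass in any of 4 isoforms, with its main isoform at 28.9, 39.4, 32.6 and 29.6 CPM in EVs and 24.1, 28.9, 34.1 and 29.7 in plasma. Neat1, the scaffold of paraspeckles, passed in 2 of 4 isoforms, with log2 fold changes of 1.42 and 1.17.

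The circRNAs named toward EVs were mmu_circ_0001276 (above) and mmu_circ_0006166 of Eif4a2 (4.34), a translation factor gene that hosts Snora81. mmu_circ_0006166 had 15.4, 206, 15.3 and 10.1 CPM in EVs and 0.794, 6.33, 0.881 and 0.762 in plasma, close to the levels of Snora81. Both circRNA entries thus followed the snoRNA of their gene, and they are not separate evidence for circRNAs. Whether the same reads were counted for circRNA and snoRNA was not tested. Toward plasma were mmu_circ_0013063 of Eno2 and mmu_circ_0013176 of Itpr2. mmu_circ_0013176 had 2.24, 1.39, 0.84 and 0.769 CPM in EVs and 451, 302, 171 and 1.96 in plasma, so the plasma of 18-month mouse 2 lay apart from the other 3 (-6.72, adjusted p = 0.0006). mmu_circ_0013063 reached 49.0 CPM in the plasma of 12-month mouse 2 and at most 0.953 in the other plasma libraries, and the call (-8.26) was lost without that mouse (adjusted p = 0.26). mmu_circ_0000380 was the most abundant circRNA of both fractions (1.26).

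piRNA entries are named by database sequence, and fragments of other RNAs can carry the same letters. The most abundant one in EVs, oocyte_piRNA1468, had 2558, 17589, 1555 and 8528 CPM in EVs and 91.5, 987, 187 and 596 in plasma (log2 fold change 3.96, adjusted p = 2.4e-06, edgeR). oocyte_piRNA2893 showed the reverse pattern, with 0, 0.0496, 0 and 0.0641 CPM in EVs and 5.08, 9.75, 16.5 and 15 in plasma (-8.19, adjusted p = 6.9e-07). piR-104408 (6.89), piR-100151 (5.35) and piR-128963 (-6.44) completed the changes named by the rule, and piR-104408 was lost without 12-month mouse 2 (adjusted p = 0.4). The most abundant piRNA in plasma, oocyte_piRNA1479, did not pass (-0.34).

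To compare the number of RNAs, libraries were thinned to 2711595 counts, the rounded total of the shallowest. EVs then held 22529, 13097, 20026 and 14609 RNAs and plasma 24570, 17948, 22374 and 18829. Plasma held more in 4 of 4 mice, with a mean difference of EVs minus plasma of -3365 ± 1382, which 2 of the 16 sign changes match in the exact test. Thinned to 7381 miRNA counts, EVs held 312 ± 25 miRNAs and plasma 338 ± 25, again more in plasma in 4 of 4 mice.

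Whether the contrast between EVs and plasma differed with age was tested against 3 mice of 2 months and 7 mice of 6 to 8 months with an interaction term in edgeR. The plasma labels of 2 of the 3 mice of 2 months do not separate them. Their pairing with the EV libraries rests on replicate numbers, so within-mouse values of these 2 mice, here and below, are uncertain. Against 2 months, 0 of 22597 RNAs passed (0%), with 1451 at an unadjusted p under 0.05 and 9 calls by DESeq2. Against 6 to 8 months, 2 RNAs (0.00885%) passed, with 15 by DESeq2. They were Gm24931 (log2 difference -4.58, SE 0.70, adjusted p = 0.03) and n-R5s219 (-4.51, SE 0.69, adjusted p = 0.03), the plasma-higher rRNA entries described above. At 6 to 8 months Gm24931 was higher in EVs on the log2(RPM + 0.5) scale in 3 of 7 mice and n-R5s219 in 2 of 7, against 0 of 4 at 12 to 18 months. Counts at 6 to 8 months were low. Gm24931 had 1 to 13 counts in EVs and 0 to 24 in plasma, and n-R5s219 had 0 to 29 and 0 to 18. The shallowest library of that age held fewer counts than the shallowest old library (2711594), so the direction in single mice is uncertain. At 2 months both RNAs were higher in plasma in 3 of 3. Neither passed without 12-month mouse 1 or without 12-month mouse 2, or without the mouse in the model.

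The named RNAs were then followed in the younger mice. RNAs named for a large change had been picked for that change and for the same direction in all 4 old mice. Their more uniform direction or larger ratio in the old mice is therefore no evidence of a difference with age. miR-1956 was higher in EVs in all 14 mice, with a median log2 ratio of 2.49 at 2 months, 2.74 at 6 to 8 months and 3.85 at 12 to 18 months. Snora73a was also higher in EVs in all 14 mice, with medians of 1.42, 1.76 and 4.18, and Gm2762 was higher in plasma in all 14. tRNA-SeC-TCA-1-1 was higher in EVs in 2 of 3, 7 of 7 and 4 of 4 mice. miR-8117, in contrast, was higher in plasma in 4 of 4 old mice but higher in EVs in 1 of 3 and 3 of 7 younger mice. mmu_circ_0013176 was higher in EVs in 1 of 3 and 5 of 7 younger mice. None of the 65 named RNAs passed the test of the difference against 2 months.

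For class shares, the log2 ratio of EVs over plasma was compared between the 4 old and the 10 younger mice by an exact two-sided permutation test over all regroupings of the mice. rRNA was higher in EVs in all 14 mice, with a mean of 2.34 ± 0.34 in the old and 1.71 ± 0.51 in the younger mice (exact p = 0.043, adjusted p = 0.11 over 10 classes). tRNA was lower in EVs in all 14, by -0.76 ± 0.18 and -1.14 ± 0.56 (exact p = 0.22, adjusted p = 0.28). The miRNA share was higher in EVs in 4 of 4 old and 5 of 10 younger mice (0.57 ± 0.48 against -0.06 ± 0.42, exact p = 0.025, adjusted p = 0.11). The younger mice were not alike in this, with a mean of 0.30 at 2 months, where EVs were higher in 3 of 3 mice, and of -0.22 at 6 to 8 months, where they were higher in 2 of 7. misc_RNA (0.38 against -0.33, exact p = 0.015) and piRNA (0.48 against 0.03, exact p = 0.035) also had an adjusted p of 0.11. No class passed after adjustment with all counts in the denominator, and misc_RNA passed with rRNA left out of it (difference 0.60, exact permutation, adjusted p = 0.036).

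**Figure D5:**
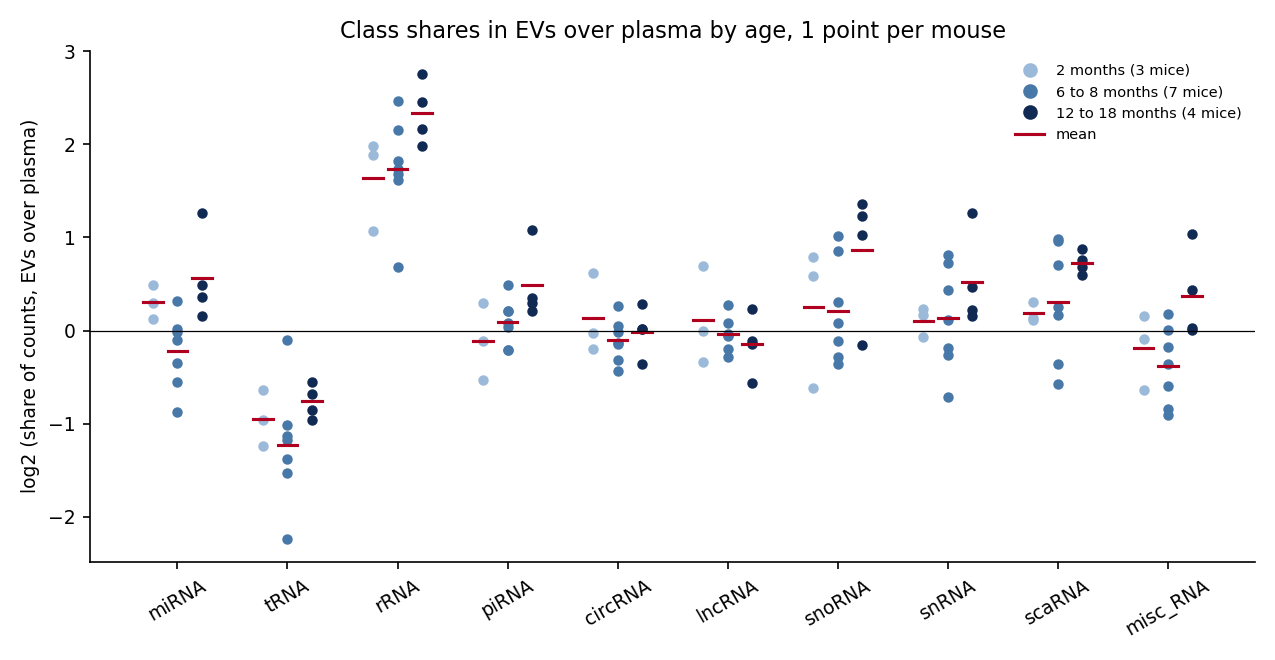
log2 ratio of EVs over plasma of each class share, 1 point per mouse, at 2 months (3 mice), 6 to 8 months (7 mice) and 12 to 18 months (4 mice), with the mean as a red bar. rRNA lies above 0 and tRNA below 0 in all 14 mice, and the miRNA mean is 0.57 in the oldest mice, 0.30 at 2 months and -0.22 at 6 to 8 months.

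Between the 2 mice of 18 months and the 2 of 12 months, the contrast differed for 5 RNAs (0.0221%). piR-8927 had the only positive difference (11.1, adjusted p = 0.033, edgeR), from 24 and 1086 plasma counts at 12 months against 1 and 11 at 18 months. EVs held 0 and 0 counts at 12 months and 2 and 3 at 18 months. Both isoforms of the lncRNA Gm30931 fell by 4.76 and 4.75 (adjusted p = 0.0013), from 752 and 389 counts in EVs and 62 and 65 in plasma at 12 months to 204 and 84 in EVs and 1026 and 630 in plasma at 18 months for the first isoform. The second isoform had nearly the same counts in every library, so the isoforms are not separate findings. piR-929 had a difference of -7.76 (adjusted p = 0.023), and piR-125966, which the naming rule left out, of -7.73. With 2 mice an age, the spread rests on 4 mice in all, and without the mouse in the model 0 RNAs passed in edgeR, with 745 at an unadjusted p under 0.05. DESeq2 with the mouse called 13.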

How the data were processed

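Small RNA libraries of EV-enriched and EV-depleted plasma from 14 mice had been deposited as estimated counts per noncoding RNA, nearly all whole numbers, and as RPM values, for which the authors divided the counts by 1 number per library (a signal that sums to 1731081 to 3809005 in the 8 libraries, since a read counts for every RNA it fits). The submitters' processing notes name mm10 and R 4.0.4; no aligner was named for these files. Libraries were grouped by the labels, and EV and plasma libraries were paired by mouse. The plasma labels of 2 mice of 2 months do not separate them, and these were paired by replicate number. The deviations of EV and plasma miRNA levels from the fraction means correlated by 0.46 to 0.65 within a mouse (355 miRNAs) and by -0.58 to 0.43 between mice. The EVs of 18-month mouse 1 were barely set apart, at 0.46 with their own plasma and 0.43 with that of 12-month mouse 1. Counts were rounded and 22597 of 80668 RNAs, those reaching 1 RPM in over 10% of either fraction's libraries, were tested with edgeR 4.0.16 (quasi-likelihood, TMM, mouse as block), with DESeq2 1.42.0 as an alternative, in R 4.3.3, at an adjusted p of 0.05. Standard errors were derived from the F statistic. Scripts were tested on simulated data.

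Named were, among RNAs past the threshold, in the same direction in all 4 mice and with a mean of at least 10 counts, the 8 miRNAs and 2 RNAs of each other class with the largest change each way, the 5 most abundant miRNAs of a fraction, the most abundant RNA of each class, and the 3 smallest p-values each way of a difference by age. Members and lists were chosen with earlier results of these data known. Intervals between replicates measure the spread over mice. GENCODE M21 and RefSeq (GRCm38.p6) gave sequences; those of 5S rRNA entries are not reported here, and circRNA coordinates were not used.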

Additional observations from a re-analysis of the deposited data

Results flagged for a closer look

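For normally distributed values, Dixon's criterion flags about 1 in 20 groups by chance. In 152 groups of 4 libraries (76 measures in each fraction), 20 held a library far from the other 3 by this criterion. The EVs of 12-month mouse 2 were the highest in 9 of them: miR-3068-3p at 31.4 CPM, the rRNA Gm24931 at 3.92, piR-104408 at 9.22, mmu_circ_0006166 at 206, the snoRNAs Gm24357 at 18.5, Gm26448 at 13.3 and Rnu3b3 at 193, the scaRNA Gm25820 at 4.16 and the misc_RNA Gm23037 at 30.5. The plasma of the same mouse was the highest in 8: tRNA-Pro-TGG-3-1 at 382 CPM, Gm24931 at 106, piR-104408 at 0.0527, mmu_circ_0006166 at 6.33, mmu_circ_0013063 at 49.0, Gm26448 at 0.264, piR-8927 at 57.3 and the misc_RNA share at 0.536% of counts. The EVs of 12-month mouse 1 were the highest for piR-128963 (0.0604 CPM) and Gm22261 (0.484 CPM), and the plasma of 18-month mouse 2 for Gm22667 (11.9 CPM). Many of the measures were RNAs picked for a large change, so the 20 flags cannot be judged against that rate. The flags of piR-104408 in plasma and piR-128963 in EVs rested on 1 count against 0 in the other 3 libraries. Gm22261 had 8, 8, 5 and 6 counts in EVs.

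Differences of the contrast with age that passed the interaction test were -4.58 for Gm24931 and -4.51 for n-R5s219 against 6 to 8 months. Between 18 and 12 months they were 11.1 for piR-8927, -4.76 and -4.75 for the isoforms of Gm30931 and -7.76 for piR-929.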

How the results depend on the processing

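Without the replicate block by mouse, and with age as a covariate, 492 RNAs were higher in EVs and 264 in plasma. The counts were 973 and 3950 with RPM scaling, 830 and 3755 with total counts, and 16 and 42 among miRNAs alone, and 1033 were higher in plasma with no filter. Leaving out each mouse gave 1165 to 1458 and 442 to 514. Scaled to miRNAs alone, miR-451a (-0.38), miR-21a-5p (-0.057), miR-3473b (-0.80), miR-3473e (-0.81) and miR-25-3p (-0.28) turned toward plasma. Counting RNAs with identical counts 1 time, chosen after seeing the data, gave log2 share ratios of 1.72 for rRNA and 0.58 for scaRNA. Without rRNA in the denominator the ratios were 1.07 for miRNA, -0.25 for tRNA, 0.99 for piRNA, 0.49 for circRNA, 0.36 for lncRNA, 1.23 for scaRNA and 0.88 for misc_RNA, and the age difference of misc_RNA passed (0.60, adjusted p = 0.036 by exact permutation). Thinned to miRNAs alone, plasma held 26 more RNAs (EVs minus plasma, -26).

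The contrast against 2 months gave 7 RNAs higher and 2 lower with DESeq2, 3 lower among miRNAs alone, and 3 higher and 1 lower without the 2 mice of 2 months whose plasma labels do not separate them. Against 6 to 8 months, DESeq2 gave 3 higher and 12 lower, the fit without the replicate block 0 lower, and leaving out a mouse 0 to 2 lower. Between 18 and 12 months DESeq2 gave 11 higher and 2 lower, and the fit without the block 0 and 0. The causes were not tested. At 1 RPM an RNA had 1.51 counts in the plasma of 12-month mouse 1 and 4.34 or more in the other 7 libraries.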
